A study of Mus musculus and Rattus norvegicus with 51 samples.

Results

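Livers of wild-type mice that had received carbon tetrachloride (CCl4) were compared with livers of wild-type mice that had received MO, the control injection as the labels abbreviate it. Oils are the usual carrier of CCl4. The 7 samples, 4 with CCl4 and 3 with MO, were chosen by their labelled genotype and treatment from the 51 samples of the series, a study of HMGB1 redox isoforms in scarring of the liver. All genes of the table were used. RNA came from total liver lysate of mice labelled male, after 4 weeks of treatment. For comparison, the table also held 4 CCl4 and 3 MO livers labelled Hmgb1ΔHepΔMye with WT HMGB1, and 4 CCl4 and 3 MO livers labelled Hmgb1ΔHepΔMye with Δ[O] HMGB1. Those mice are called the knockouts with WT HMGB1 and with Δ[O] HMGB1 here. Whether the wild-type mice received a vector is not given in the sources used here, and the labels of the knockouts name a change of Hmgb1 and an added form of HMGB1 that those of the wild type do not.

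CCl4 is turned into a reactive radical by the cytochrome CYP2E1 in hepatocytes around the central vein, which then die. Dying cells and activated macrophages drive hepatic stellate cells, the vitamin A-storing pericytes of the sinusoid, to become contractile myofibroblasts that lay down collagen. Surviving hepatocytes meanwhile divide and lose part of their specialised metabolism. Repeated injection of CCl4 is a common way to scar a rodent liver, and it models toxic injury rather than a disease of the bile ducts or of fat.

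The wild-type libraries held 27226583 to 34022125 gene counts with CCl4 and 22598631 to 31382281 with MO. With CCl4, 15953 to 16372 genes had a read, against 15390 to 15592 with MO. Ambiguous reads, relative to gene counts, made up 0.579 to 0.635% with CCl4 and 1.31 to 1.66% with MO. In the knockouts they made up 0.658 to 0.836% with CCl4 and 0.697 to 0.902% with MO. The high share was thus seen in the wild-type MO livers alone. The wild-type MO livers stood apart from the whole table: 1124 genes were higher and 907 lower in all 3 of them than in each of the other 18 libraries, and 1915 of the 6542 genes called below (29.3%) are such genes. CCl4 library 4 showed a smaller rise than the other CCl4 libraries. Among genes chosen as higher without it, its median log2 difference from MO was 0.80, against 1.19 in the 3 others. Libraries 1 to 3, treated alike, stood at 1.31, 1.36 and 1.24, against 1.19, 1.16 and 1.19. Among genes chosen as lower, library 4 stood at −1.07, against −1.31, and library 3 was close to it at −1.12, against −1.28. Libraries 1 and 2 stood at −1.28 and −1.56, each against −1.26. Each set of genes was chosen with the same libraries that the left-out library is set against. 2 of the knockout MO libraries, number 3 of each form of HMGB1, held 845 and 664 CPM of Xist, the RNA of the inactive X chromosome, against at most 0.206 CPM in any wild-type library, which goes against their label of male. Of 4 genes of the Y chromosome, the library with WT HMGB1 held at most 0.231 CPM each, whereas that with Δ[O] HMGB1 held 22.5 CPM of Ddx3y, against 62.4 to 98.9 CPM of Ddx3y in the wild-type libraries. The part of these library differences in the results was not tested. Counts of genes that set the wild type beside the knockouts are therefore given also without those 2 libraries where they change.

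Close to every second gene differed between CCl4 and MO in wild-type liver. Of 14129 genes tested, 3219 were higher (22.8%) and 3323 lower (23.5%) with CCl4 than with MO, 6542 in all (46.3%), by edgeR's quasi-likelihood test at a Benjamini-Hochberg adjusted p under 0.05. The higher genes moved further: 1773 rose and 1000 fell by at least 2-fold, 273 rose and 92 fell by at least 8-fold, and 119 rose and 49 fell by at least 16-fold. The even split depends on the scaling. Levels are given as CPM, read counts divided by a TMM-scaled library total, which sets the bulk of genes equal between libraries, so that the median gene had a log2 fold change of −0.0044. The TMM factor was 0.754 to 0.81 in the wild-type MO libraries, 0.984 to 1.176 in the wild-type CCl4 libraries and 0.895 or more in the knockouts. With library totals alone the median gene stood 0.45 higher on the log2 scale, and 6862 of 8057 called genes (85.2%) were higher. In bulk tissue, fewer cells of a type and less RNA per cell cannot be told apart.

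**Figure D1:**
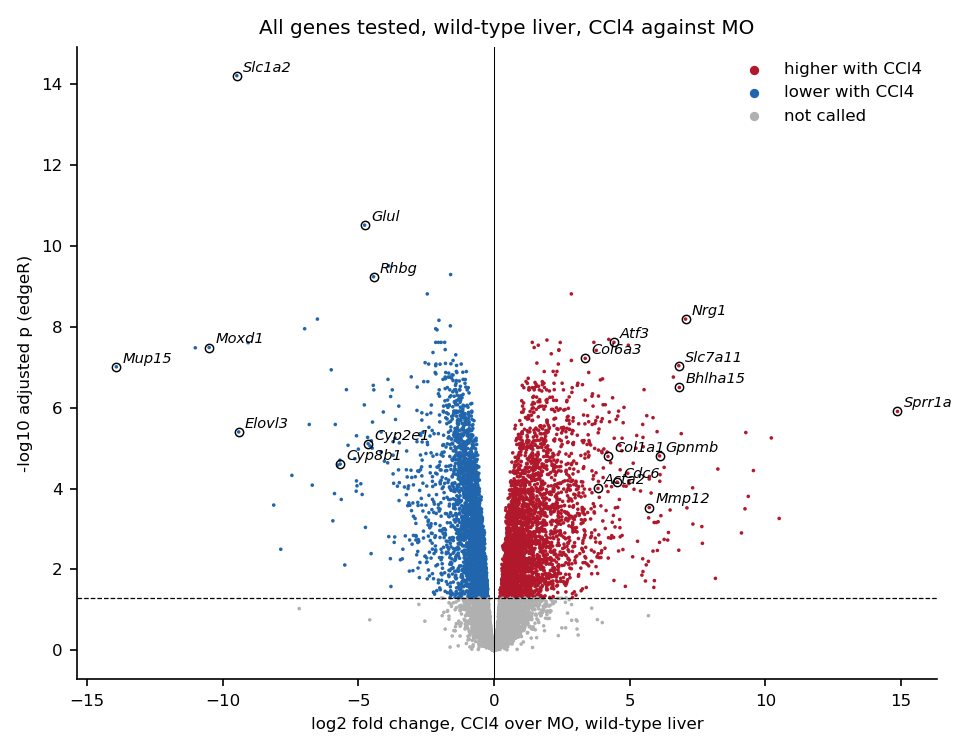
Each point is 1 of the 14129 genes tested in wild-type liver; the horizontal axis is the log2 fold change of CCl4 over MO and the vertical axis −log10 of the adjusted p of edgeR, with the dashed line at 0.05. Red genes were higher and blue genes lower with CCl4; Slc1a2 lies at −9.48 and Nrg1 at 7.06, and of the called genes 1773 lie at or beyond a 2-fold rise and 1000 at or beyond a 2-fold fall.

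The genes that rose most had almost no reads in MO livers. Sprr1a, a small proline-rich protein of the cornified envelope of epithelia that other injured tissues also switch on, stood at 66.6, 235, 77 and 104 CPM with CCl4 and 0, 0 and 0 CPM with MO. No MO library had a read, and its summed 16371 counts with CCl4 were at least 2612-fold above a floor of 3 counts over the MO group. Nrg1, which encodes the ErbB receptor ligand neuregulin 1 (chromosome 8, 31807452 to 32891609 on GRCm38.p6), had 12.5, 17.8, 8.55 and 12.7 CPM with CCl4 and 0.206, 0 and 0.0462 CPM with MO (log2 fold change 7.06, SE 0.49, adjusted p = 6.46e-09). Slc7a11, the cystine importer that feeds glutathione synthesis, had 11.1, 19.7, 13.3 and 14.3 CPM with CCl4 and 0.0411, 0.328 and 0.0462 CPM with MO (log2 fold change 6.81, SE 0.60, adjusted p = 9.17e-08). The groups did not overlap in any of the 3 genes. Bhlha15, the secretory-cell factor MIST1, rose by 6.83 on the log2 scale, Gpnmb, a glycoprotein of lipid-laden macrophages, by 6.10, Mmp12, macrophage elastase, by 5.72, Ly6d, a surface protein, by 5.53, Atp2b2, a plasma membrane calcium pump, by 5.50 and S100g, a calcium-binding protein, by 9.37. Ntrk2, the receptor TrkB, rose by 6.90, with CCl4 library 3 at 38.7 CPM and the other 3 between 11.6 and 14.2 CPM. Gsta1, a glutathione transferase, rose by 5.72. Cyp2a4, a cytochrome of a near-identical pair, spread widely: it had 4.96, 22.2, 149.7 and 240.1 CPM with CCl4 and 0.329, 0.492 and 0.277 CPM with MO (log2 fold change 8.16, SE 2.57, adjusted p = 0.0166), and its call was lost when any 1 MO library was left out, with adjusted p up to 0.059.

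The genes that fell most included transporters, metabolic enzymes and major urinary proteins of the liver. Slc1a2, the glutamate transporter GLT-1 (chromosome 2, 102658239 to 102790784), had 0.325, 0.471, 0.667 and 0.523 CPM with CCl4 and 453, 297 and 313 CPM with MO (log2 fold change -9.48, SE 0.28, adjusted p = 6.22e-15). Elovl3, a fatty acid elongase with higher expression in male liver, had 0.732, 0.36, 1.45 and 0.56 CPM with CCl4 and 506, 499 and 595 CPM with MO (log2 fold change -9.41, SE 1.07, adjusted p = 3.98e-06). Both genes were abundant in every MO liver and close to 0 in every CCl4 liver. Moxd1, a monooxygenase-like protein, had 0.0271, 0, 0 and 0 CPM with CCl4 and 8.06, 21.9 and 19.96 CPM with MO, and in the knockouts it averaged 0.0564 CPM with CCl4 and 0.0129 CPM with MO (WT HMGB1) and 0.0259 CPM with CCl4 and 0.0812 CPM with MO (Δ[O] HMGB1). It was thus well detected in the wild-type MO livers alone. Among major urinary protein genes, Mup15 had 0 counts with CCl4 and 3980 with MO, at least 2772-fold lower, and Mup9 fell by 11.01 on the log2 scale, Mup7 by 5.94 and Mup14 by 5.63. The Mup genes are near-identical copies, so the split of reads among them is uncertain; together they took 0.405 to 0.694% of gene counts with CCl4 and 1.88 to 2.66% with MO. Fitm1, a fat storage protein, fell by 6.98, Susd4, a complement-control-domain protein, by 6.81, Hsd3b5, a steroid dehydrogenase of male liver, by 6.70, Cyp8b1, the sterol 12-alpha-hydroxylase, by 5.67 and Nxpe2 by 5.44.

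Collagen genes rose together. Of 17 tested, 15 rose and 0 fell, with a median log2 fold change of 2.20, beside 22.8% higher and a median of −0.0044 over all genes. Col1a1, the alpha-1 chain of type I collagen (chromosome 11, 94936224 to 94953042), had 139, 139, 209 and 87.4 CPM with CCl4 and 2.72, 7.27 and 13.6 CPM with MO (log2 fold change 4.20, SE 0.57, adjusted p = 1.61e-05). Col3a1, the chain of type III collagen, had 202, 183, 265 and 112 CPM with CCl4 and 10.8, 19 and 28.4 CPM with MO (log2 fold change 3.30, SE 0.37, adjusted p = 1.52e-06). In both genes the lowest CCl4 liver, library 4, stood several-fold above the highest MO liver. Col6a3, of the microfibrillar type VI collagen, had 50.5, 48.6, 52.4 and 26.5 CPM with CCl4 and 3.74, 5.19 and 4.16 CPM with MO (log2 fold change 3.36, SE 0.28, adjusted p = 6.06e-08). The basement membrane chains Col4a1 and Col4a2 rose by 2.15 and 2.20 on the log2 scale. Col5a3 (−0.79, adjusted p = 0.169) and Col18a1 (−0.39, adjusted p = 0.087), a collagen that hepatocytes also make, did not pass the test. With Col18a1 at 727 to 1286 CPM with CCl4 and 1147 to 1359 CPM with MO, the summed level of the list ran from 1768 to 2159 CPM with CCl4 and from 1383 to 1507 CPM with MO.

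Matrix glycoproteins moved in the same direction, 16 of 20 higher and 0 lower, with a median of 1.73. Tnc, tenascin C of provisional matrix, had 19.3, 38.3, 23.6 and 9.26 CPM with CCl4 and 0.247, 0.492 and 0.785 CPM with MO (log2 fold change 5.49, SE 0.68, adjusted p = 5.43e-06). Thbs1, thrombospondin 1, which can release latent TGF-beta, had 21.5, 75.2, 20.2 and 8.63 CPM with CCl4 and 0.535, 1.15 and 0.878 CPM with MO (log2 fold change 5.23, SE 0.68, adjusted p = 1.01e-05). The CCl4 livers differed among themselves here, library 2 being highest and library 4 lowest in both genes. Nid1, nidogen 1 of basement membranes, rose by 4.37 and Fbn1, fibrillin 1, by 2.88 on the log2 scale. Fn1, fibronectin, which hepatocytes secrete into plasma, had 2725, 2833, 2523 and 2819 CPM with CCl4 and 2694, 2248 and 1758 CPM with MO and did not pass the test (log2 fold change 0.29, SE 0.24, adjusted p = 0.352).

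Enzymes that fold, hydroxylate and cross-link collagen gave 9 higher and 2 lower of 13, with a median of 0.83. Lox, lysyl oxidase, which forms the cross-links, had 4.26, 5.15, 5.25 and 1.64 CPM with CCl4 and 0.0411, 0.219 and 0.37 CPM with MO (log2 fold change 4.30, SE 0.63, adjusted p = 2.3e-05), and Loxl2 rose by 3.49. Serpinh1, the collagen chaperone HSP47, rose by 2.73. Plod1, a lysyl hydroxylase, and Bmp1, the procollagen C-proteinase, fell by 0.50 and 0.67. Proteases and their inhibitors gave 15 higher and 0 lower of 18, with a median of 2.28. Mmp13, the rodent interstitial collagenase, had 4.61, 10.6, 5.39 and 2.35 CPM with CCl4 and 0, 0.273 and 0.0462 CPM with MO (log2 fold change 5.86, SE 0.68, adjusted p = 1.77e-06). Timp1, an inhibitor of these proteases, had 5.61, 9.75, 9.34 and 5.04 CPM with CCl4 and 0.329, 0.71 and 3.37 CPM with MO (log2 fold change 2.34, SE 0.81, adjusted p = 0.0248), and lost its call without CCl4 library 2 or MO library 1 or 2 (adjusted p up to 0.105). Genes that build matrix and genes that cut it were thus both higher with CCl4. Plat, the tissue plasminogen activator, rose by 4.02.

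Myofibroblast genes showed the same shape: 15 of 18 rose, 0 fell, and the median was 1.71. Acta2, alpha smooth muscle actin, had 28.3, 40.8, 23 and 11 CPM with CCl4 and 1.4, 2.24 and 1.85 CPM with MO (log2 fold change 3.83, SE 0.63, adjusted p = 9.94e-05). Tagln, the actin-binding protein transgelin, had 42.3, 63.4, 38.7 and 17.2 CPM with CCl4 and 3.13, 4.64 and 4.16 CPM with MO (log2 fold change 3.35, SE 0.47, adjusted p = 1.77e-05). CCl4 library 2 was highest and library 4 lowest in both, and all stood above MO. The summed level of the list ran from 636 to 995 CPM with CCl4, against 271 to 292 CPM with MO. Cthrc1, a marker of collagen-rich fibroblasts, rose by 4.41 and reached at most 0.812 CPM. Genes linked to quiescent stellate cells and vitamin A did not fall as a group. Of 14, 6 were higher and 4 lower, beside 22.8% higher and 23.5% lower over all genes, and the median was 0.41. Lrat, which esterifies retinol for storage, rose (log2 fold change 0.75, SE 0.18, adjusted p = 0.00238), as did Reln, reelin, by 1.79, while Hhip, a hedgehog inhibitor, fell by 1.91 and Pparg, a lipid regulator of the quiescent state, by 0.92. Gfap, at 0.109 to 0.261 CPM in every library, was too low to tell.

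**Figure D2:**
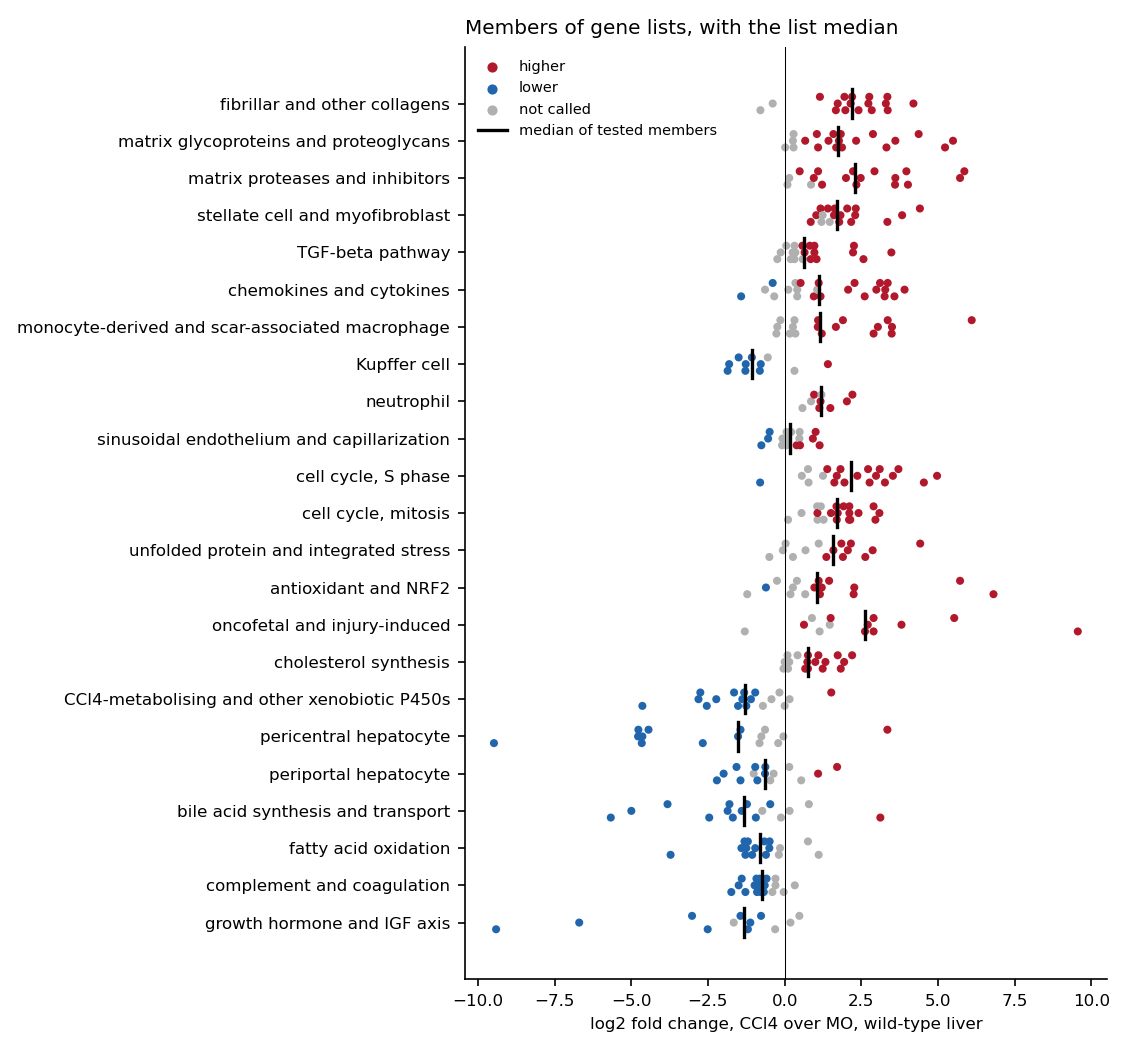
Points are the tested members of 1 list per line, placed by their log2 fold change of CCl4 over MO in wild-type liver; red members were higher, blue lower and grey not called, and the black bar is the median. The collagen bar lies at 2.20 and the myofibroblast bar at 1.71, while the pericentral bar lies at −1.52 and the Kupffer cell bar at −1.07.

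Of the signals known to act on stellate cells, several ligands were higher. In the TGF-beta list 11 of 20 rose and 0 fell, with a median of 0.62. Tgfb1, the main fibrogenic ligand, had 15.3, 16.5, 15 and 13.8 CPM with CCl4 and 6.21, 7.81 and 9.15 CPM with MO (log2 fold change 0.97, SE 0.19, adjusted p = 0.000392), and Tgfb2 and Tgfb3 rose by 2.26 and 2.23. Ltbp2, a latent TGF-beta binding protein of the matrix, rose by 3.48 and Id1, a target of BMP signalling, by 2.57. Smad2, Smad4 and Smad7, which carry or damp the signal, did not pass the test, whereas Smad3 rose by 0.85. The fold changes of the 3 ligand genes were larger than those of their receptor genes, of which Tgfbr2 rose by 0.58 and Tgfbr1 did not pass (0.35, adjusted p = 0.0718). The PDGF list gave 4 higher and 0 lower of 7, with a median of 0.85. Its receptor Pdgfrb, a pericyte marker, had 28.2, 33.9, 24.9 and 18.9 CPM with CCl4 and 3.99, 5.57 and 6.38 CPM with MO (log2 fold change 2.32, SE 0.21, adjusted p = 1.27e-07), and the ligands Pdgfa and Pdgfb rose by 1.63 and 1.59, while Pdgfc and Pdgfd did not pass. Hedgehog, Notch and Hippo genes gave 13 higher and 0 lower of 15, with a median of 1.24. The hedgehog factors Gli1 and Gli2 were not among those tested. Gli1 had 0.0277 to 0.203 CPM with CCl4 and 0.0823 to 0.109 CPM with MO, with overlapping groups. Sox9, a progenitor and duct factor, had 14.9, 28.1, 14.6 and 18.3 CPM with CCl4 and 6.87, 7.59 and 6.38 CPM with MO (log2 fold change 1.45, SE 0.33, adjusted p = 0.00128). Notch3, a Notch receptor of pericytes, rose by 2.91, its target Heyl by 2.16, and the Hippo target Ankrd1 by 2.91. Ctgf, connective tissue growth factor, rose by 1.78 on the log2 scale.

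Among chemokines and cytokines 14 of 23 rose and 2 fell, with a median of 1.11, and most were low in absolute terms. Ccl2, which calls CCR2-bearing monocytes, had 3.15, 5.73, 2.46 and 0.635 CPM with CCl4 and 0.247, 0.273 and 0.416 CPM with MO (log2 fold change 3.26, SE 0.62, adjusted p = 0.000306). Cxcl14, a broadly acting chemokine, had 17.8, 38.8, 30.04 and 14.8 CPM with CCl4 and 3.13, 2.4 and 3.23 CPM with MO (log2 fold change 3.11, SE 0.70, adjusted p = 0.00172). All CCl4 livers stood above all MO livers in both genes, and library 4 was lowest. Ccl22, a chemokine for regulatory T cells, rose by 3.91 and had at most 0.0546 CPM with MO. Il1rn, the natural blocker of the IL-1 receptor, rose by 2.28, whereas Il1b (log2 fold change -0.64, SE 0.42, adjusted p = 0.216) and Tnf (1.06, adjusted p = 0.0925) did not pass. Ccl24, an eosinophil chemokine of macrophages, fell by 1.42 and Cxcl12, the ligand of CXCR4, by 0.39.

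Genes of monocyte-derived macrophages were higher and those of resident Kupffer cells lower. In the list of monocyte-derived and scar-associated macrophages 11 of 18 rose and 0 fell, with a median of 1.15. Ccr2 had 10.8, 12.7, 11.3 and 4.7 CPM with CCl4 and 1.36, 1.26 and 0.97 CPM with MO (log2 fold change 3.04, SE 0.44, adjusted p = 2.4e-05). Trem2, a lipid-sensing receptor of scar macrophages (chromosome 17, 48346401 to 48352276), had 9.82, 7.09, 9.05 and 8.77 CPM with CCl4 and 0.453, 0.82 and 1.06 CPM with MO (log2 fold change 3.49, SE 0.41, adjusted p = 2.23e-06). Gpnmb had 66.9, 38.3, 42.6 and 54.1 CPM with CCl4 and 0.165, 1.26 and 0.878 CPM with MO. MO livers held at most 1.36 CPM of any of these 3 genes. Itgax, the integrin CD11c, rose by 3.50 and Cd63, a lysosomal membrane protein, by 3.36. Of the general macrophage genes, Cd68, a lysosomal protein, and Msr1, a scavenger receptor, rose by 1.21 and 1.08. Others did not pass the test, among them Adgre1, which encodes F4/80 (log2 fold change 0.35, SE 0.38, adjusted p = 0.479), Lyz2 (0.27, adjusted p = 0.508) and the complement chains C1qa and C1qb (−0.24 and −0.14).

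Of 11 Kupffer cell genes tested, 8 fell and 1 rose, with a median of −1.07. Clec4f, a lectin that in mice marks Kupffer cells (chromosome 6, 83644542 to 83656116), had 74.3, 49.1, 62.3 and 58.3 CPM with CCl4 and 203, 203 and 238 CPM with MO (log2 fold change -1.81, SE 0.19, adjusted p = 6.78e-07). Cd163, the haemoglobin scavenger receptor, had 11.1, 9.75, 11.6 and 12.5 CPM with CCl4 and 42, 41.4 and 38.7 CPM with MO (log2 fold change -1.86, SE 0.21, adjusted p = 1.28e-06). Timd4, a receptor for dying cells, fell by 1.27 and Vsig4, a complement receptor, by 1.07. The summed level of the list ran from 603 to 928 CPM with CCl4, against 1328 to 1415 CPM with MO. Marco, a scavenger receptor, went the other way with 190.2, 156, 166 and 141 CPM with CCl4 and 66.4, 61.3 and 57 CPM with MO (log2 fold change 1.41, SE 0.45, adjusted p = 0.0162), and C6, which hepatocytes also express, lost its call without CCl4 library 2 or 4, without MO library 2 and under library totals.

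Neutrophil and lymphocyte genes stood at low levels. Neutrophil genes gave 6 higher and 0 lower of 9, with a median of 1.17, and their summed level ran from 25.1 to 41.1 CPM with CCl4 and from 12.3 to 16 CPM with MO. S100a8, a calprotectin chain, had 6.62, 5.6, 10.1 and 4 CPM with CCl4 and 3.25, 2.51 and 3.23 CPM with MO (log2 fold change 1.13, SE 0.33, adjusted p = 0.00888), and Ngp and Camp, granule proteins of young neutrophils, rose by 2.21 and 2.03. Ly6g, the defining neutrophil marker, stood at 0 to 0.165 CPM in all libraries and was not tested. T and NK cell genes gave 3 higher and 2 lower of 14, beside 22.8% higher and 23.5% lower over all genes. Their median was −0.21 and turned to 0.25 under library totals. Cd3e had 0.57, 0.332, 0.29 and 0.635 CPM with CCl4 and 0.411, 0.328 and 0.739 CPM with MO (log2 fold change -0.13, SE 0.43, adjusted p = 0.827), Cd4 fell by 2.33, and Il7r rose by 2.22. B and plasma cell genes gave 4 higher and 0 lower of 7, and the 4 reached at most 1.34 CPM, with Ms4a1, the antigen CD20, at 0.949, 0.803, 0.638 and 0.299 CPM with CCl4 and 0.123, 0.219 and 0.0924 CPM with MO (log2 fold change 2.24, SE 0.57, adjusted p = 0.00338). Among 13 MHC class II and dendritic cell genes, 3 rose and 0 fell, a rising share close to the 22.8% of all genes. Their median was 0.20, and their summed level ran from 127 to 184 CPM with CCl4 and from 131 to 187 CPM with MO. H2-Ab1, a class II chain, had 25.2, 26.4, 26.9 and 22.6 CPM with CCl4 and 18.1, 24.6 and 25.3 CPM with MO (log2 fold change 0.16, SE 0.22, adjusted p = 0.578); Itgax, named above, and Cd209a, by 2.73, rose most. Interferon-stimulated genes gave 1 higher and 6 lower of 14, with a median of −0.52. Irf7, a factor that sustains interferon production, fell by 0.64 and Ifit1 by 0.91; under library totals 4 rose and 0 fell, so the direction of that list depends on the scaling.

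Sinusoidal endothelial genes gave 5 higher and 3 lower of 16, with a median of 0.16, beside 22.8% higher and 23.5% lower over all genes. Stab2, a hyaluronan scavenger receptor of sinusoids, had 27.3, 21.6, 21.3 and 21 CPM with CCl4 and 28, 36.7 and 35 CPM with MO (log2 fold change -0.54, SE 0.12, adjusted p = 0.00144), a call lost under library totals. Lama4, a laminin chain of capillary basement membrane, and Lyve1 rose by 1.14 and 1.01. Bile duct genes gave 5 higher and 1 lower of 10, with a median of 0.69. Krt19, a duct keratin, did not pass (log2 fold change 0.25, SE 0.54, adjusted p = 0.736), and Cdh1, E-cadherin, which periportal hepatocytes also make, had 166, 185, 142 and 106 CPM with CCl4 and 45.3, 51.7 and 40.1 CPM with MO (log2 fold change 1.71, SE 0.21, adjusted p = 3.02e-06). Of 8 mesothelial genes 0 were called by edgeR and 0 by DESeq2, and 1, Wt1, had an unadjusted p under 0.05 (1.41, adjusted p = 0.0917). Their summed level spread from 15.8 to 53 CPM with CCl4 and from 12.9 to 49.7 CPM with MO.

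Cell cycle genes were higher with CCl4. In S phase 15 of 20 rose and 1 fell, with a median of 2.16. Uhrf1, which keeps methylation through replication, had 38.5, 17.1, 28.9 and 8.07 CPM with CCl4 and 0.741, 0.874 and 0.601 CPM with MO (log2 fold change 4.97, SE 0.77, adjusted p = 6.44e-05). Mcm2, of the replicative helicase, had 43.8, 27.2, 35.5 and 14.3 CPM with CCl4 and 2.02, 2.24 and 2.68 CPM with MO (log2 fold change 3.71, SE 0.49, adjusted p = 1.02e-05). Library 4 was the lowest CCl4 liver in both genes and still stood above all MO livers. Cdc6, which loads the helicase, rose by 4.54. Tk1, thymidine kinase 1, fell by 0.80, and Pcna, the sliding clamp, did not pass (log2 fold change 0.76, SE 0.32, adjusted p = 0.0561). In mitosis 14 of 20 rose and 0 fell, with a median of 1.71. Mki67, the proliferation antigen Ki-67 (chromosome 7, 135689784 to 135716450), had 14.4, 7.04, 23.3 and 8.89 CPM with CCl4 and 4.85, 3.11 and 2.59 CPM with MO (log2 fold change 1.92, SE 0.47, adjusted p = 0.00285). Cdc20, an activator of the anaphase-promoting complex, rose by 3.09 and Bub1, a checkpoint kinase, by 2.96. Ccnb1 and Ccnb2, the mitotic cyclins, did not pass (adjusted p = 0.0925 and 0.896), and Birc5, survivin, had 3.39, 1.36, 5.54 and 2.95 CPM with CCl4 and 2.06, 2.08 and 2.63 CPM with MO (log2 fold change 0.55, SE 0.39, adjusted p = 0.254).

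Promoters of the mitosis and collagen lists are shown because both lists rose while their promoters differ in how often they hold certain motifs. RefSeq gives 300 bases per gene, 250 before and 50 after the start, on GRCm38.p6. Capitals mark CCAAT boxes, the cell cycle homology region with the letters TTTGAA, and TATAAA boxes. Each motif was searched on both strands, so a capital run can also be the reverse complement. The first 3 mitosis genes with a promoter entry read 5′ to 3′ along the gene as follows.
Mki67 (chr7:135716330-135716629, minus strand): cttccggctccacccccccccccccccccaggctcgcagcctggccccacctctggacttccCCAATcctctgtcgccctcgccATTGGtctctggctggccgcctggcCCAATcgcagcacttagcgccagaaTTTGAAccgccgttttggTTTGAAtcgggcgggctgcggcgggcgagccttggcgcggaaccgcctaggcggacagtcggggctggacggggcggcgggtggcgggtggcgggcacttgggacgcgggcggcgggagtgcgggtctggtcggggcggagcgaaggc
Ccnb1 (chr13:100786437-100786736, minus strand): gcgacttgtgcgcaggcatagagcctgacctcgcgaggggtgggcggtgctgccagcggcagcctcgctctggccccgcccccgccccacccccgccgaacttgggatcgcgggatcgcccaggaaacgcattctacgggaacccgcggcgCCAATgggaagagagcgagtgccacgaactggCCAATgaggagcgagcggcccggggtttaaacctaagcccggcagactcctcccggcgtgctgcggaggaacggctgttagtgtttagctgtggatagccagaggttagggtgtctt
Cdk1 (chr10:69352863-69353162, minus strand): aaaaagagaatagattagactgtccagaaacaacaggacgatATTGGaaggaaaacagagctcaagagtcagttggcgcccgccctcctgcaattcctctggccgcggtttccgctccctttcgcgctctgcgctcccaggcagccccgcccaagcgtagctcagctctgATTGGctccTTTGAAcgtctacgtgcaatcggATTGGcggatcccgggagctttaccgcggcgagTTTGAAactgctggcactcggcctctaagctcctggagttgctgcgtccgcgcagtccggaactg
The first 3 collagen genes with an entry read as follows.
Col3a1 (chr1:45311288-45311587, plus strand): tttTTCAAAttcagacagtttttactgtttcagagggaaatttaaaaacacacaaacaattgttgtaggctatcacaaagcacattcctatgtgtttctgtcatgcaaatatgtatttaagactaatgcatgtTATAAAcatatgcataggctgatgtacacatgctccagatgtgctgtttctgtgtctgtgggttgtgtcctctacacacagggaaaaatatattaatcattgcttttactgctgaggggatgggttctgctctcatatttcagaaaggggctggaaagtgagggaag
Col1a2 (chr6:4505368-4505667, plus strand): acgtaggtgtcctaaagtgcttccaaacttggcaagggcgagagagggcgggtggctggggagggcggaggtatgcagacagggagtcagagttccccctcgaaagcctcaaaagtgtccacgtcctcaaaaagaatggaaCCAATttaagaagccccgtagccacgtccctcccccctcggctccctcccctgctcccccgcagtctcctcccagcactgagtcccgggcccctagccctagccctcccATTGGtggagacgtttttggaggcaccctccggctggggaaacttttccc
Col5a1 (chr2:27886175-27886474, plus strand): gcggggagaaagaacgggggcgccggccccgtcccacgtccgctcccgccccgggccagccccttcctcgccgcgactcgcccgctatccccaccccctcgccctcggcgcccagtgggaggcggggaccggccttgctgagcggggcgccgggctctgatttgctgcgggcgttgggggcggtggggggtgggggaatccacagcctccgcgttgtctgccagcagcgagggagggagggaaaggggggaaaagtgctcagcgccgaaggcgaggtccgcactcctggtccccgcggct
Of 15 mitosis genes with a promoter, 13 held CCAAT (86.7%), 11 held the cell cycle homology region (73.3%) and 0 held TATAAA. Of 13 collagen genes, 6 held CCAAT (46.2%), 2 the homology region (15.4%) and 1, Col3a1, TATAAA (7.69%). Over all 27025 promoters the shares were 37.9%, 18.1% and 14.2%. A match is a description of letters in the window and not a mapped binding site.

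Stress genes of several kinds were higher. Of 15 genes of the unfolded protein and integrated stress responses, 9 rose and 0 fell, with a median of 1.59. Hspa5, the endoplasmic reticulum chaperone BiP (chromosome 2, 34772090 to 34776529), had 2564, 3510.1, 1962 and 2573 CPM with CCl4 and 899, 761 and 989 CPM with MO (log2 fold change 1.59, SE 0.21, adjusted p = 6.31e-06). Ddit3, the death-linked factor CHOP, had 26.6, 33.3, 31.2 and 48.8 CPM with CCl4 and 4.11, 4.64 and 5.54 CPM with MO (log2 fold change 2.87, SE 0.36, adjusted p = 4.4e-06). Atf3 had 25.4, 43.2, 24.4 and 25.6 CPM with CCl4 and 1.6, 1.64 and 0.924 CPM with MO (log2 fold change 4.42, SE 0.34, adjusted p = 2.43e-08). In all 3 genes the CCl4 livers stood clear of the MO livers, library 4 included. The chaperones and folding enzymes Pdia4, Hyou1, Sdf2l1, Creld2 and Dnajb9 rose by 1.36 to 2.16. Atf4 and Xbp1, the factors upstream, did not pass at the RNA level (−0.058 and 0.031).

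The Hspa5 promoter is shown because it holds the endoplasmic reticulum stress element, CCAAT and CCACG separated by 9 bases; it was chosen after its values were seen, and capitals mark CCAAT on either strand and the CCACG of the element.
Hspa5 (chr2:34771840-34772139, plus strand): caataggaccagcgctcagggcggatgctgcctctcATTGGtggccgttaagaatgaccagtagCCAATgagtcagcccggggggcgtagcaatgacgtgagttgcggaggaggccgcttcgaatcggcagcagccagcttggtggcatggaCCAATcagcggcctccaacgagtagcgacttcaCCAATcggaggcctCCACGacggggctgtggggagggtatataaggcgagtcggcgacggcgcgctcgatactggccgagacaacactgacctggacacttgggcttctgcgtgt
Of 14 genes of the stress list with a promoter, 2 held the element (14.3%), Hspa5 and Creld2, against 35 of all 27025 promoters (0.13%).

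In the list of p53 targets and growth arrest genes 10 of 14 rose and 0 fell, with a median of 0.86. Eda2r, a death receptor, had 7.11, 8.39, 9.28 and 5.97 CPM with CCl4 and 0.329, 0.219 and 0.878 CPM with MO (log2 fold change 3.99, SE 0.47, adjusted p = 1.88e-06), Gadd45a, a growth arrest protein, rose by 3.07 and Cdkn2a by 3.38, with at most 0.0462 CPM with MO. Cdkn1a, the inhibitor p21, did not pass, with library 4 alone high: it had 62.6, 79.2, 80.1 and 171 CPM with CCl4 and 91.1, 84.7 and 74.3 CPM with MO (log2 fold change 0.23, SE 0.35, adjusted p = 0.617). Antioxidant and NRF2 genes gave 9 higher and 1 lower of 16, with a median of 1.04. Nqo1, a quinone reductase, had 8.73, 12.2, 11.5 and 14.7 CPM with CCl4 and 6.54, 4.92 and 4.8 CPM with MO (log2 fold change 1.11, SE 0.26, adjusted p = 0.00159), Srxn1, sulfiredoxin, rose by 2.27 and Gclc, of glutathione synthesis, by 1.15, but Gclm, Txnrd1 and Hmox1 did not pass. Genes of fetal or injured liver gave 9 higher and 0 lower of 13, with a median of 2.62. Anxa2, annexin A2, had 118, 179, 121 and 76.2 CPM with CCl4 and 6.05, 8.03 and 12.3 CPM with MO (log2 fold change 3.81, SE 0.42, adjusted p = 1.72e-06). Cdh17, a cadherin of gut and duct epithelium, had 416 counts with CCl4 and 0 with MO, at least 66.4-fold higher. Afp, alpha-fetoprotein, had 3.47, 3.46, 2.93 and 2.88 CPM with CCl4 and 1.4, 1.97 and 1.02 CPM with MO and did not pass (log2 fold change 1.14, SE 0.54, adjusted p = 0.0929).

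Lists of hepatocyte enzymes and transporters held more members that fell than rose, other than those of cholesterol synthesis and lipogenesis. Of 18 xenobiotic cytochrome genes tested, 12 fell and 1 rose, with a median of −1.29. Cyp2e1 (chromosome 7, 140763819 to 140774990) had 235, 262, 170.2 and 1193 CPM with CCl4 and 12688, 10064 and 11934 CPM with MO (log2 fold change -4.64, SE 0.60, adjusted p = 7.77e-06). Library 4 was the highest CCl4 liver by several-fold and still lay several-fold below every MO liver. Cyp2c37 fell by 2.81, again with library 4 highest at 158 CPM, and Por, the reductase that feeds electrons to these cytochromes, fell by 1.65. Cyp1a1 rose by 1.52 and reached at most 1.95 CPM, and Cyp3a11, Cyp2b10, Cyp2c29 and Cyp4a14 did not pass. Cyp3a41a had 0 counts in all 7 wild-type libraries. The summed level of the list ran from 7958 to 16002 CPM with CCl4, against 29959 to 34469 CPM with MO.

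Pericentral genes gave 9 lower and 1 higher of 15, with a median of −1.52. Glul, glutamine synthetase, which marks the hepatocytes next to the central vein (chromosome 1, 153899929 to 153909723), had 45.8, 39.2, 53.9 and 82.7 CPM with CCl4 and 1769, 1373 and 1404 CPM with MO (log2 fold change -4.77, SE 0.23, adjusted p = 3.08e-11). Lhpp, a phosphatase, had 1.22, 2.44, 3.25 and 1.57 CPM with CCl4 and 62.2, 42.2 and 70.9 CPM with MO (log2 fold change -4.78, SE 0.48, adjusted p = 8.55e-07). The CCl4 and MO ranges of both genes lie far apart, and library 4 did not stand out for Lhpp. Oat, ornithine aminotransferase, fell by 4.66 and Rhbg, an ammonium transporter, by 4.44. The Wnt targets Lgr5, Axin2 and Nkd1 did not pass (−0.76, −0.82 and −0.041), while Tbx3, another Wnt target, fell by 2.67. Slc1a4, an amino acid transporter, rose by 3.35. Periportal genes gave 8 lower and 2 higher of 15, with a median of −0.64. Asl, argininosuccinate lyase of the urea cycle, had 265, 185, 430.2 and 516 CPM with CCl4 and 1551, 1394 and 1891 CPM with MO (log2 fold change -2.21, SE 0.28, adjusted p = 4.4e-06), and Cps1, which starts that cycle, had 5598, 3317, 4769.8 and 4161 CPM with CCl4 and 8292, 7272 and 5330.0 CPM with MO (log2 fold change -0.64, SE 0.21, adjusted p = 0.0153), with overlapping groups. The Cps1 call was lost under library totals, in a fit of the wild-type libraries alone, and without CCl4 library 2 or MO library 1. Ass1, the step before Asl and abundant in liver, stood at 0.224 to 0.986 CPM with CCl4 and 1.42 to 2.55 CPM with MO, a level that casts doubt on how its reads were assigned.

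**Figure D3:**
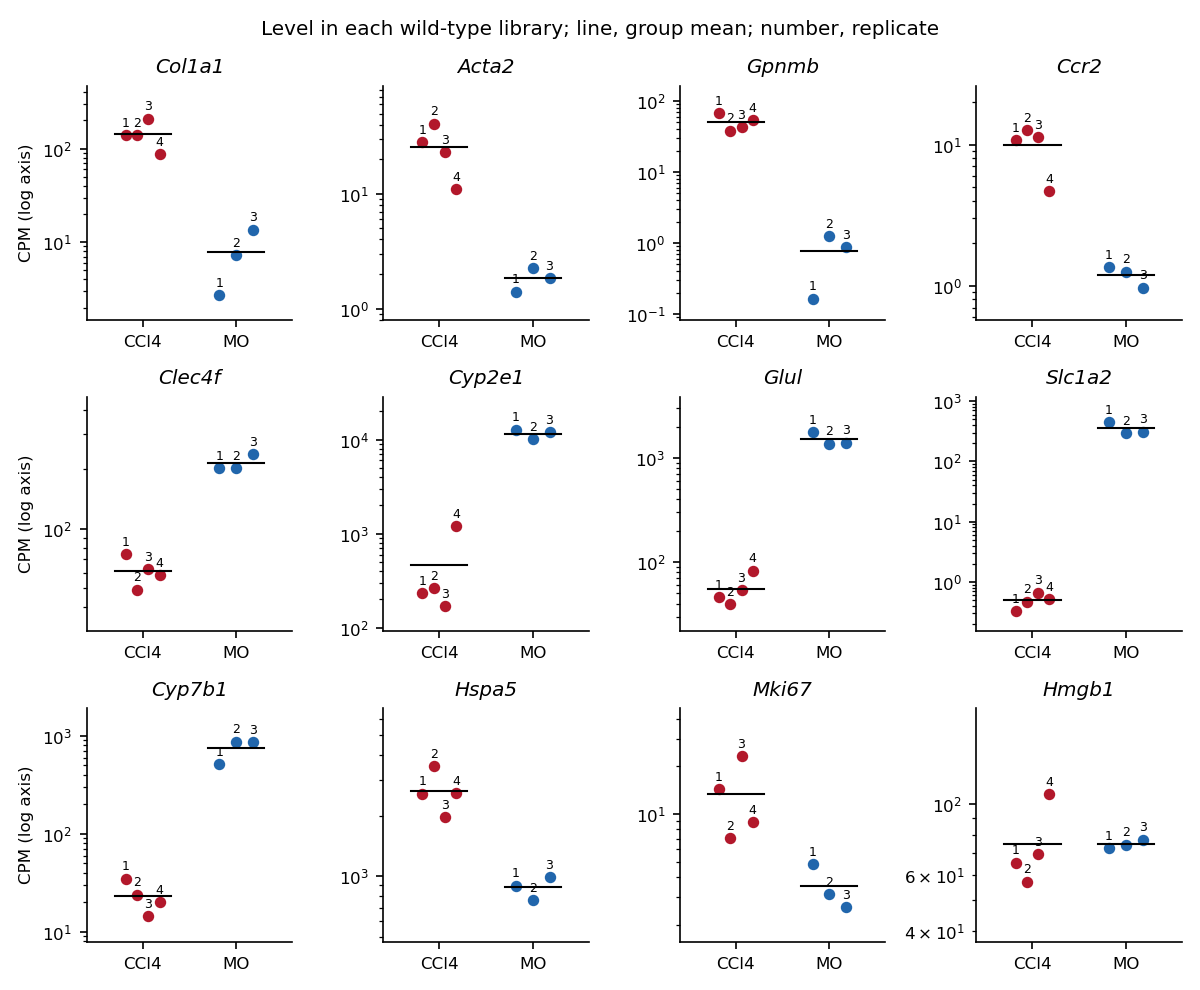
Each panel shows 1 gene in the 4 CCl4 (red, left) and 3 MO (blue, right) wild-type livers, as CPM on a log axis, with the replicate number over each point and the group mean as a line. Col1a1, Acta2, Gpnmb, Ccr2, Hspa5 and Mki67 lie higher with CCl4, Clec4f, Cyp2e1, Glul, Slc1a2 and Cyp7b1 lower, and the Hmgb1 groups overlap; library 4 lies nearest to MO for Col1a1 and Cyp2e1.

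Bile acid genes gave 11 lower and 1 higher of 16, with a median of −1.31. Cyp7a1, the rate-limiting enzyme of bile acid synthesis, had 48.2, 10.5, 37.6 and 89.8 CPM with CCl4 and 308, 297 and 160.0 CPM with MO (log2 fold change -2.46, SE 0.78, adjusted p = 0.0171). Cyp7b1, of the alternative pathway, had 35, 23.9, 14.4 and 20.01 CPM with CCl4 and 517, 869 and 861 CPM with MO (log2 fold change -5.0, SE 0.64, adjusted p = 1.06e-05), and Cyp8b1 had 4.15, 2.16, 5.6 and 34.8 CPM with CCl4 and 678, 425 and 662 CPM with MO. Synthesis enzymes and the uptake carriers Slc10a1 (by 1.86) and Slco1b2 (by 1.69) fell, and the nuclear receptor FXR, encoded by Nr1h4, fell by 1.23. Abcc4, an exporter on the blood side of the hepatocyte, rose by 3.12, while Abcc2 and Abcc3 did not pass.

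Growth hormone and IGF genes gave 8 lower and 0 higher of 12, with a median of −1.32. Igf1 had 638, 619, 643 and 581 CPM with CCl4 and 1074, 1039.9 and 1065 CPM with MO (log2 fold change -0.77, SE 0.16, adjusted p = 0.000786), the receptor gene Ghr fell by 1.12, and Socs2, a target of the hormone, fell by 3.02. Elovl3 and Hsd3b5, given above with the genes that fell most, are the members with the largest fold changes, and both are higher in male than in female mice. The hepatocyte identity list gave 8 lower and 0 higher of 14, with a median of −0.72. Cebpa, a master regulator of the hepatocyte, had 189.8, 144, 153 and 232 CPM with CCl4 and 515, 501 and 526 CPM with MO (log2 fold change -1.52, SE 0.17, adjusted p = 9.51e-07) and Hnf4a fell by 0.73. Hpd and Tdo2, of tyrosine and tryptophan breakdown, fell by 1.95 and 1.65. Alb, albumin, did not pass (−0.36, adjusted p = 0.0941), nor did Ahsg (0.55, adjusted p = 0.0564), so abundant secreted products did not all fall.

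Plasma proteins made by the hepatocyte came next. Complement and coagulation genes gave 15 lower and 0 higher of 20, with a median of −0.75; under library totals 6 fell and 2 rose. C8b, of the membrane attack complex, had 234, 192, 234 and 264 CPM with CCl4 and 677, 837 and 796 CPM with MO (log2 fold change -1.74, SE 0.27, adjusted p = 3.59e-05), Mbl1, mannose-binding lectin, fell by 1.40, and C3 did not pass (log2 fold change 0.33, SE 0.31, adjusted p = 0.412). Acute phase genes gave 5 lower and 0 higher of 20, a share close to the 23.5% of all genes that fell, with a median of −0.49; under library totals 3 fell and 3 rose. Saa1, an acute phase apolipoprotein, spread across CCl4 livers at 125, 573, 1188 and 561 CPM with CCl4 and 1489, 864 and 1103 CPM with MO (log2 fold change -0.91, SE 0.58, adjusted p = 0.213), whereas Saa4, its constitutive relative, fell by 2.74 and Orm3 by 2.31.

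Lipid genes split by pathway. Of 18 cholesterol synthesis genes 12 rose and 0 fell, with a median of 0.76. Hmgcs1, a synthase early in the pathway, had 645, 593, 479.9 and 347 CPM with CCl4 and 159, 123 and 121 CPM with MO (log2 fold change 1.94, SE 0.25, adjusted p = 4.2e-06). Lipogenesis was mixed, 5 higher and 3 lower of 14, with a median of 0.52, beside 22.8% higher and 23.5% lower over all genes. Fasn, fatty acid synthase, had 590.1, 454, 296 and 226 CPM with CCl4 and 140.4, 151 and 105 CPM with MO (log2 fold change 1.56, SE 0.44, adjusted p = 0.00684) and Pnpla3, a lipid droplet hydrolase, rose by 3.91, while Thrsp, a lipogenic factor, had 162, 53.7, 112 and 65.6 CPM with CCl4 and 752, 1103 and 747 CPM with MO (log2 fold change -3.14, SE 0.56, adjusted p = 0.000226). Of 16 fatty acid oxidation genes 12 fell and 0 rose, with a median of −0.81. Cpt1a, the gate of fatty acids into mitochondria, had 219, 218, 404 and 386 CPM with CCl4 and 849.7, 723 and 661 CPM with MO (log2 fold change -1.28, SE 0.21, adjusted p = 5.79e-05), its partner Slc25a20 fell by 1.41, and Acot1, a thioesterase, by 3.72. The receptor Ppara, which drives the pathway, fell by 0.96. Urea cycle and sugar genes gave 9 lower and 3 higher of 16, with a median of −0.67. G6pc, the last step of glucose release, had 85.7, 79.1, 228 and 192 CPM with CCl4 and 807, 933 and 759 CPM with MO (log2 fold change -2.51, SE 0.50, adjusted p = 0.000508), and Hk2 and Pkm, both of glycolysis, rose by 0.66 and 1.99. Clock genes gave 1 higher and 2 lower of 15, beside the same 22.8% and 23.5% of all genes. Their median was −0.26 and turned to 0.18 under library totals. Arntl, the activator BMAL1, did not pass (log2 fold change -0.60, SE 0.51, adjusted p = 0.354), Nr1d1 rose by 0.92 and Cry1 fell by 1.17.

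Defining markers of neighbouring tissues were at or near 0. Of 8 pancreatic acinar genes 2 were tested. Cpa1 and Prss2 had at most 0.0373 CPM, and Pnlip and Amy2a5 were at 0, while Cela1, which passed, fell by 2.44. Of 6 adipose genes Adipoq, Plin1, Lep and Retn had at most 0.0462 CPM, and Cidec, which fatty hepatocytes also express, fell by 1.71. Mylpf was the 1 muscle gene of 7 tested and did not pass (−0.74, adjusted p = 0.122). The globin genes Hbb-bs and Hba-a1 were listed at 0 in every library although Alas2, of haem synthesis in red cells, stood at 48.9 to 70.6 CPM with CCl4 and 123 to 141 CPM with MO. Those zeros do not measure blood.

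Hmgb1 itself did not differ beyond the spread of the CCl4 livers. It had 65.5, 57.2, 69.5 and 107 CPM with CCl4 and 72.8, 74.5 and 77.3 CPM with MO (log2 fold change -0.0016, SE 0.21, adjusted p = 0.996), with library 4 high. Under library totals it was higher with CCl4 (0.44, adjusted p = 0.045). Among 13 genes of HMGB1 and its receptors, 5 rose and 1 fell, beside 22.8% higher and 23.5% lower over all genes. Their median was 0.67. Havcr2, the receptor TIM-3 that can bind HMGB1, had 2.52, 1.91, 2.23 and 1.49 CPM with CCl4 and 0.453, 0.219 and 0.139 CPM with MO (log2 fold change 2.87, SE 0.47, adjusted p = 6.51e-05), Tlr9 rose by 1.44, Cxcr4 by 1.12 and Tlr2 by 1.00. Myd88, the adaptor of Toll-like receptors, fell by 0.90. Tlr4 and Ager, which encodes RAGE, the best-known HMGB1 receptors, did not pass (0.29 and 0.41), and Ager stayed under 1 CPM.

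The response of the knockouts shared no library with that of the wild type. Some genes differed between the wild type and all knockout groups under both treatments. Nr1d1 averaged 28 CPM with CCl4 and 14.8 CPM with MO in the wild type, and 67.8 to 110.4 CPM in the knockout groups. Cry1 averaged 20.1 and 45.1 CPM, against 6.31 to 8.95 CPM, and Cdkn1a 98.2 and 83.4 CPM, against 12.9 to 33.5 CPM. Whether genotype, time of collection or batch lay behind these levels was not tested. Of the 3219 genes that rose in the wild type, 1936 also rose in the knockouts with WT HMGB1 (60.1%, or 58.7% of the genes that rose there) and 1358 in those with Δ[O] HMGB1 (42.2%, or 74.7%). Of the 3323 that fell, 1914 also fell in the knockouts with WT HMGB1 (57.6%, or 56.5%) and 1042 in those with Δ[O] HMGB1 (31.4%, or 64.8%). Without the 2 libraries with Xist reads, 2006 and 1399 of 3408 genes rose in both (58.9 and 41.1%). Likewise 1998 and 1061 of 3496 fell in both (57.2 and 30.3%). The log2 response itself differed between the wild type and the knockouts with WT HMGB1 for 1906 genes (13.5%), 938 higher and 968 lower in the wild type, and for 2533 genes without the 2 libraries that hold Xist reads. Higher and lower compare signed log2 fold changes here, so a gene that fell further in the wild type counts as lower. Against the knockouts with Δ[O] HMGB1 it differed for 1475 genes (10.4%), 675 higher and 800 lower, and for 1413 without those 2 libraries. With library totals alone, 72% of the genes that differed from WT HMGB1 and 83.1% of those that differed from Δ[O] HMGB1 were higher in the wild type. Single MO libraries weighed on both counts: the first was 1233 without wild-type MO library 1, 1213 without wild-type MO library 2 and 1263 without MO library 2 of those knockouts. The second was 940 without wild-type MO library 2, 961 without wild-type CCl4 library 2 and 935 without MO library 1 of those knockouts. The wild-type MO livers stand apart in this table, so a difference in response can lie in the MO level as well as in the CCl4 level, and group means are given for that reason. The knockout label cannot be checked from Hmgb1, since their labels also name an added form of HMGB1.

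Of 17 collagen genes, the response of 1, Col15a1, was higher in the wild type than in either knockout. Over all genes, 13.5% differed from WT HMGB1 and 10.4% from Δ[O] HMGB1, so 1 of 17 does not set the collagens apart. The list medians were 2.20 in the wild type, 2.76 with WT HMGB1 and 2.05 with Δ[O] HMGB1. Without the 2 libraries with Xist reads, Col1a2 was also called, lower in the wild type than with WT HMGB1. For Col1a1 the response difference was -1.51, SE 0.70, adjusted p = 0.165 from the knockouts with WT HMGB1, and -0.47, SE 0.69, adjusted p = 0.731 from those with Δ[O] HMGB1; neither passed the test, and with these errors a difference of more than 2-fold could have gone uncalled. Acta2 did not differ beyond its error either (0.37, SE 0.79, adjusted p = 0.806 with WT HMGB1).

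Genes of endoplasmic reticulum stress rose in the wild type, with a response higher than in either knockout for 9 of 15 genes and lower for 0, and the list median was 1.59 in the wild type, −0.44 with WT HMGB1 and −0.20 with Δ[O] HMGB1. Without the 2 libraries with Xist reads the counts were 10 and 9. Hspa5 averaged 2652 ± 639.5 CPM (SD) with CCl4 and 883 ± 115 CPM with MO in the wild type. In the knockouts with WT HMGB1 it averaged 732 ± 107 CPM with CCl4 and 1009.7 ± 281 CPM with MO, so the MO levels lay close together and the CCl4 levels far apart. The response difference was 2.05, SE 0.28, adjusted p = 0.000206 from the knockouts with WT HMGB1 and 1.83, SE 0.28, adjusted p = 0.000629 from those with Δ[O] HMGB1. Hyou1, a chaperone of the same compartment, was among the 5 genes with the lowest p for Δ[O] HMGB1, with a difference of 2.55, SE 0.29, adjusted p = 4.87e-05. In the list of p53 targets and growth arrest genes, the response was higher in the wild type for 5 of 14 genes against WT HMGB1. It was higher for 7 against Δ[O] HMGB1, and lower for 0 against either. Gadd45a, with differences of 3.37 and 3.08, averaged 10.1 ± 3.69 CPM with CCl4 and 1.19 ± 0.325 CPM with MO in the wild type. It averaged 7.67 ± 2.14 and 9.41 ± 1.71 CPM with WT HMGB1, and 7.63 ± 2.26 and 7.63 ± 3.09 CPM with Δ[O] HMGB1, CCl4 first, so the wild-type MO livers stood below the other 5 groups.

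**Figure D4:**
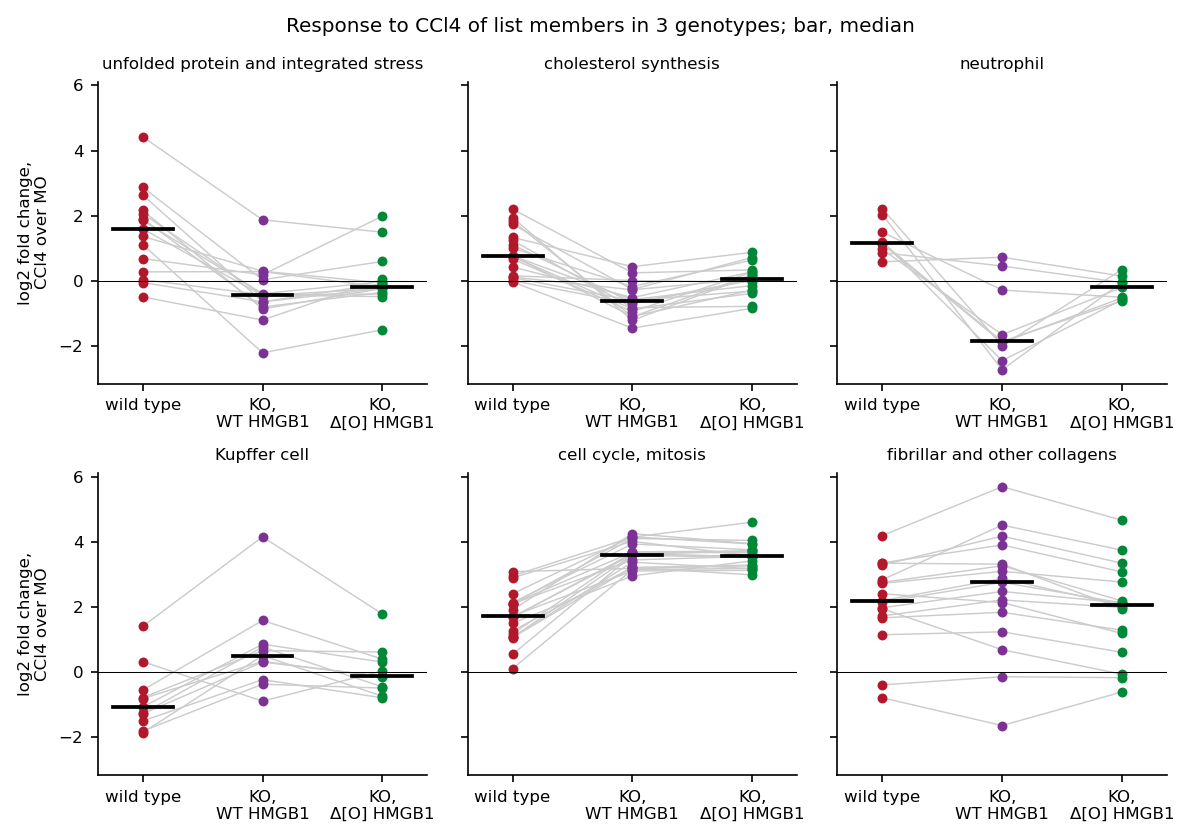
Each grey line joins 1 gene across the wild type, the knockouts with WT HMGB1 and the knockouts with Δ[O] HMGB1; the vertical axis is the log2 fold change of CCl4 over MO in that genotype, and the black bar is the list median. Stress, cholesterol and neutrophil bars are highest in the wild type (1.59, 0.76 and 1.17), the mitosis bar is lowest there (1.71, against 3.61 and 3.57), the Kupffer cell bar is lowest there (−1.07), and collagen bars lie between 2.05 and 2.76.

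Mitotic genes rose less in the wild type. The response was lower for 10 of 20 genes than with WT HMGB1, and for 7 than with Δ[O] HMGB1 (8 and 7 without the 2 libraries with Xist reads), and higher for 0; the medians were 1.71, 3.61 and 3.57. Mki67 averaged 13.4 ± 7.28 CPM with CCl4 and 3.52 ± 1.19 CPM with MO in the wild type. With WT HMGB1 it averaged 153 ± 45.3 and 7.95 ± 0.917 CPM, CCl4 first, and with Δ[O] HMGB1 91.9 ± 43.3 and 5.9 ± 2.91 CPM. The wild-type CCl4 livers were thus below both groups of CCl4-treated knockouts. Its response difference was -2.34, SE 0.63, adjusted p = 0.0191 with WT HMGB1, lost without MO library 2 of those knockouts or wild-type MO library 1, and -2.03, SE 0.63, adjusted p = 0.0469 with Δ[O] HMGB1, kept in only 7 of 20 alternatives. Birc5 gave a difference of -3.04, SE 0.54, adjusted p = 0.00128 from the knockouts with WT HMGB1. The response of S phase genes was lower for 3 of 20 than with WT HMGB1 and for 2 than with Δ[O] HMGB1, shares close to the 13.5 and 10.4% of all genes that differed (1 and 1 without the 2 libraries with Xist reads). Hmgb2, a chromatin protein of dividing cells, followed the mitotic genes with a difference of -1.68, SE 0.43, adjusted p = 0.0131 from the knockouts with WT HMGB1.

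Kupffer cell and neutrophil genes differed too. The response of Kupffer cell genes was lower in the wild type for 9 of 11 genes against WT HMGB1, with 1 higher, and for 4 of 11 against Δ[O] HMGB1, with 0 higher (6 of 11 without the 2 libraries with Xist reads). The list median was −1.07 in the wild type, 0.51 with WT HMGB1 and −0.13 with Δ[O] HMGB1, the last 0.077 without those libraries. Clec4f averaged 61 ± 10.5 CPM with CCl4 and 214 ± 20.1 CPM with MO in the wild type, and 123 ± 19.4 and 159 ± 26.3 CPM in the knockouts with WT HMGB1. The response difference was -1.45, SE 0.27, adjusted p = 0.00185 from the knockouts with WT HMGB1 and -1.32, SE 0.27, adjusted p = 0.00486 from those with Δ[O] HMGB1. The response of neutrophil genes was higher in the wild type for 7 of 9 against WT HMGB1 and for 3 of 9 against Δ[O] HMGB1, the second count falling to 1 without the 2 libraries. S100a8 averaged 6.59 ± 2.61 CPM with CCl4 and 3 ± 0.421 CPM with MO in the wild type, and 5.72 ± 1.18 and 21.4 ± 3.53 CPM with WT HMGB1, so the CCl4 means lay close and the MO means far apart. Ccl2 had the same shape, with MO means of 0.312 ± 0.0909 CPM in the wild type and 3.63 ± 0.812 CPM with WT HMGB1, and a response difference of 2.86, SE 0.77, adjusted p = 0.0185, lost without wild-type MO library 1 or 2.

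Metabolic lists differed in part. The response of cholesterol synthesis genes was higher in the wild type for 13 of 18 against WT HMGB1 and 6 of 18 against Δ[O] HMGB1 and lower for 0 (11 and 8 without the 2 libraries with Xist reads), with medians of 0.76, −0.64 and 0.044. Hmgcs1 averaged 516 ± 132 CPM with CCl4 and 134 ± 21.6 CPM with MO in the wild type, and 487 ± 112 and 1134 ± 292 CPM with WT HMGB1. The CCl4 means were close, and the MO means were not. The response of fatty acid oxidation genes was lower in the wild type for 5 of 16 against WT HMGB1 and 8 of 16 against Δ[O] HMGB1 (5 and 5 without the 2 libraries). Cpt1a, among them, was not called in either knockout (0.39 with WT HMGB1 and −0.26 with Δ[O] HMGB1). The response of NRF2 genes was higher for 7 of 16 and lower for 1 against WT HMGB1, and higher for 3 and lower for 0 against Δ[O] HMGB1 (2 and 0 without the 2 libraries). Cyp2e1 fell in each genotype, by 4.64 in the wild type, 4.08 with WT HMGB1 and 3.42 with Δ[O] HMGB1, and the difference did not pass the test (-1.22, SE 0.77, adjusted p = 0.355 for Δ[O] HMGB1). Glul fell further in the wild type (-1.54, SE 0.29, adjusted p = 0.00196 from WT HMGB1), where its MO level of 1515 ± 220.5 CPM was higher than the 821 ± 63.9 CPM of those knockouts.

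The genes with the lowest p for a difference in response moved in opposite directions or began from unlike MO levels. Serpina7, the carrier of thyroid hormone in plasma (chromosome X, 139079249 to 139085236), averaged 138 ± 70.2 CPM with CCl4 and 12 ± 1.23 CPM with MO in the wild type. It averaged 5.92 ± 2.64 and 52.2 ± 17.3 CPM with WT HMGB1, and 7.49 ± 2.63 and 73.4 ± 30.4 CPM with Δ[O] HMGB1, CCl4 first. It thus rose in the wild type and fell in the knockouts, a difference of 6.66, SE 0.61, adjusted p = 5.99e-06 from WT HMGB1 and 6.81, SE 0.61, adjusted p = 1.36e-05 from Δ[O] HMGB1. St3gal5, a ganglioside synthase, averaged 174 ± 40.3 CPM with CCl4 and 771 ± 35.9 CPM with MO in the wild type and 86.9 ± 8.31 and 55.6 ± 4.77 CPM with WT HMGB1. Its difference was -2.79, SE 0.22, adjusted p = 6.49e-07, and the wild-type MO livers were the highest group. Cntrl, a centrosomal protein, differed by −2.24 and −1.95, Pter, a phosphotriesterase-related protein, by 2.52 from WT HMGB1, and Cars, cysteinyl-tRNA synthetase, by 1.68 and 1.29. Hmgb1 differed from the knockouts with Δ[O] HMGB1 (1.21, SE 0.30, adjusted p = 0.0138), where it averaged 74.5 ± 14.8 CPM with CCl4 and 173 ± 42.2 CPM with MO, and not from those with WT HMGB1 (0.24, SE 0.30, adjusted p = 0.648).

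**Figure D5:**
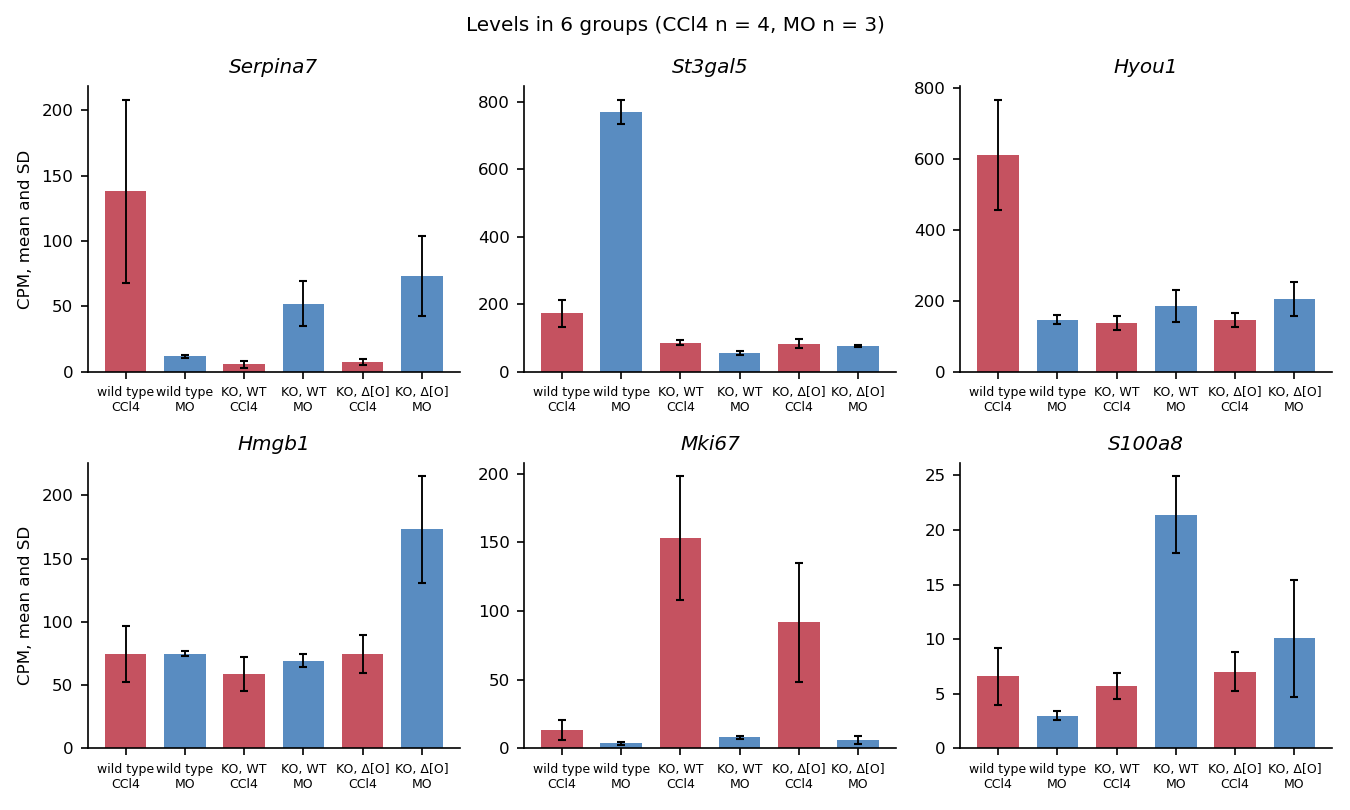
Bars give the mean CPM of 6 genes in 6 groups, with the SD as error bars; CCl4 groups (red, n = 4) stand left of MO groups (blue, n = 3), the wild type left of the knockouts. Serpina7 is highest in wild-type CCl4 livers, St3gal5 in wild-type MO livers, Hyou1 in wild-type CCl4 livers, Hmgb1 in MO livers with Δ[O] HMGB1, Mki67 in CCl4 livers with WT HMGB1 and S100a8 in MO livers with WT HMGB1.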

How the data were processed

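RNA of total liver lysate was sequenced from stranded mRNA libraries, per the labels' protocols. The deposited table gives whole-number read counts per gene symbol for 21 libraries, raw and not pooled. The submitters' processing notes name the build mm10. No source used here names the aligner, the counter or the strand setting, so antisense and overlapping genes and near-identical families (Mup, Cyp2a, Gsta) are uncertain. Reads outside genes (6.25 to 7.38% with CCl4 and 6.64 to 8.04% with MO, relative to gene counts) and ambiguous reads were left out of totals and tests.

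Counts were tested with edgeR 4.0.16 in R 4.3.3 (robust quasi-likelihood F test, TMM scaling, filterByExpr at 10 counts per library and 15 in total), in 1 fit of all 21 libraries with 1 mean per group, and p was adjusted by Benjamini-Hochberg over all 14129 genes tested. The SE of a log2 fold change is its size divided by the square root of F. A gene was called at an adjusted p under 0.05. The model was tested on simulated data. Few genes changed there, evenly up and down, so it does not test the scaling where close to every second gene differed. Response differences are contrasts of that fit. A floor of 3 counts over a group stands for 0. Alternatives were DESeq2 1.42.0, other scalings, no filter, the wild-type libraries alone, a replicate block and leaving out each library. Leaving out the 2 libraries with Xist reads was chosen after seeing the data. Whether numbered samples are separate animals is not in the labels; p-values rest on the spread among these libraries, possibly a technical one. No libraries were identical.

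The comparison and the gene lists were chosen with earlier results of these data known. Genes named are the 12 that rose and the 12 that fell most among called genes without overlap and with a mean of at least 5 CPM, the first gene of each list and its 2 called members with the largest fold change, the 5 genes with the lowest p for each response difference, and Hmgb1. A few genes within that rule are not reported here, though counts over lists include them. Other members are named as examples, chosen after their values were seen. Gene positions and promoters are RefSeq's on GRCm38.p6, where 24866 of the 24982 genes were placed. Counts of list members are a description, with no test of the list.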

Additional observations from a re-analysis of the deposited data

Results flagged for a closer look

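Among 136 genes examined, 13 had 1 wild-type CCl4 library far from the other 3 by Dixon's test; chance gives about 1 in 20. For Moxd1 and Cpa1 the other 3 libraries were at 0, where any read sets 1 library apart, so these 2 are not to be counted against chance. Library 4 was that library for Cyp8b1 (34.8 CPM), Cyp2e1 (1193 CPM), Cyp2c37 (158 CPM) and Cdkn1a (171 CPM), where it was high, and for Col6a3 (26.5 CPM), where it was low; Cpa1 had 0.0373 CPM there. Library 2 was high for Atf3 (43.2 CPM) and Ifit1 (6.15 CPM) and low for Tlr9 (0.776 CPM). Library 1 was high for Stab2 (27.3 CPM), Fitm1 (0.163 CPM) and Moxd1 (0.0271 CPM), and library 3 for Ntrk2 (38.7 CPM).

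The log2 response to CCl4 differed between the wild type and the knockouts with WT HMGB1, by a test of the difference in edgeR. It was higher in the wild type for Serpina7 (6.66), S100a8 (3.04), Ccl2 (2.86), Pter (2.52), Hspa5 (2.05), Nqo1 (2.00) and Cars (1.68). It was lower there, as a signed value, for St3gal5 (−2.79), Afp (−2.46), Mki67 (−2.34), Cntrl (−2.24), Cpt1a (−1.67), Glul (−1.54), Clec4f (−1.45), Cps1 (−1.03) and Stab2 (−1.01).

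Against the knockouts with Δ[O] HMGB1, the response differed for 44 of the 136 genes, beside 10.4% of all genes tested. The 136 were picked in part for large wild-type fold changes or for a low p of this difference, so the 2 shares cannot be compared. Those named for either knockout are first genes of lists, the 5 genes with the lowest p, and Hmgb1. The wild-type response was higher for Serpina7 (6.81), Ccl2 (3.24), Hyou1 (2.55), Hspa5 (1.83), S100a8 (1.66), Cars (1.29) and Hmgb1 (1.21). It was lower for Afp (−2.60), St3gal5 (−2.27), Mki67 (−2.03), Cntrl (−1.95), Clec4f (−1.32), Glul (−1.25), Cpt1a (−1.02) and Stab2 (−0.71). Several of these calls depend on single libraries. The Afp differences held in 6 of 20 alternatives for WT HMGB1 and 5 of 20 for Δ[O] HMGB1, and were lost without any 1 of the 4 wild-type CCl4 libraries or any 1 of the knockout MO libraries (adjusted p = 0.112 and 0.0834 without the 2 libraries with Xist reads). That of Cps1 from WT HMGB1 held in 14 of 20, lost without wild-type CCl4 library 2, MO library 1 or 2 of the wild type or of those knockouts, or with library totals. That of Cpt1a from Δ[O] HMGB1 held in 12 of 20, lost without wild-type CCl4 library 1 or 2, wild-type MO library 1 or 2 or any 1 MO library of those knockouts, or with library totals. That of S100a8 from Δ[O] HMGB1 held in 17 of 20, lost without wild-type MO library 2, without MO library 3 of those knockouts or without both libraries with Xist reads (1.14, adjusted p = 0.0814).

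Xist, outside the genes compared, stood at 845 CPM in MO library 3 of the knockouts with WT HMGB1 and at 664 CPM in MO library 3 of those with Δ[O] HMGB1, both labelled male.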

How the results depend on the processing

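The number of genes called in the wild type ran from 5543 to 6707 when 1 library was left out. It was 5844 with the wild-type libraries alone, 6308 without a filter, 6494 with DESeq2's size factors, 6681 with DESeq2, 6904 without the 2 libraries with Xist reads and 8057 with library totals alone, where 85.2% were higher. Deviations of same-numbered libraries from their group means showed little correlation (−0.003, 0.082 and 0.036). So few pairs cannot settle whether the numbers pair the samples. With the replicate block 7221 genes were called. Response differences from WT HMGB1 ran from 1213 to 2480 with 1 library left out, with 1233 and 1213 without wild-type MO library 1 or 2 and 1263 without MO library 2 of those knockouts. Those from Δ[O] HMGB1 ran from 935 to 1673, with 940 without wild-type MO library 2, 961 without wild-type CCl4 library 2 and 935 without MO library 1 of those knockouts. The cause was not tested. Under the block these counts were 2225 and 1843. Of 131 named genes, 110 kept their direction and their side of the threshold in every alternative run, as did 69 of 86 response differences; Hmgb1 changed sign with library totals (0.44, adjusted p = 0.045). Genes at a few CPM or less, many mitotic and leukocyte genes among them, rest on few reads.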
